A study of Mus musculus with 14 samples.

Results

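The small heat shock protein genes of muscle Hspb1, Hspb2, Hspb3, Hspb6, Hspb7, Hspb8 and Cryab, the co-chaperone gene Bag3 and the gene of their client protein Flnc were followed through the differentiation of C2C12 cells, a line of mouse skeletal muscle myoblasts. The 9 genes were taken by symbol from the 49671 genes of the deposited table, where each symbol had 1 identifier. Poly(A) RNA was sequenced in 14 libraries, 2 in each of 7 groups. All cells were grown in DMEM with glucose. At day 0 they were in growth medium with 20% fetal calf serum (FCS), and the other cells then spent 2 or 7 days in a differentiation medium that was replaced every second day. DM1 held 2% horse serum (HS), the classical trigger of myoblast fusion. DM2 held 10% FCS and a fat-inducing cocktail. Its parts were insulin at 1 µg/ml, IBMX, which blocks phosphodiesterases, at 0.5 mM, the synthetic glucocorticoid dexamethasone at 0.5 µM and rosiglitazone, which activates PPAR-gamma, at 2 µM. DM3 joined 2% HS with the same cocktail. DM3 against DM1 therefore differs in the cocktail alone, DM3 against DM2 in the kind and amount of serum, and DM2 against DM1 in both. The cells are 1 line, and the labels do not say that the replicates were separate cultures, so p-values reflect only the spread among the libraries sequenced, and that spread may be technical.

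Small heat shock proteins are chaperones that work without ATP: they share an alpha-crystallin domain, assemble into oligomers and hold partly unfolded proteins until ATP-driven chaperones of the Hsp70 family refold them or pass them on for breakdown. In striated muscle they sit on the cytoskeleton, at Z-discs and along desmin filaments, and several are induced during muscle differentiation. Bag3 is a nucleotide exchange factor of Hsp70 that also binds HSPB8. Together with Hsc70 (Hspa8) and the ubiquitin ligase CHIP (Stub1) the pair feeds damaged filamin C, the actin crosslinker of the muscle Z-disc encoded by Flnc, into chaperone-assisted selective autophagy.

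On GRCm38, with the Gencode vM21 annotation, the genes lie on 6 chromosomes. Hspb1 is on chromosome 5 from 135887919 to 135889563, Hspb8 on chromosome 5 from 116408491 to 116422864, Hspb7 on chromosome 4 from 141420779 to 141425311, Hspb3 on chromosome 13 from 113662896 to 113663676 and Flnc on chromosome 6 from 29433256 to 29461883. Hspb6 (chromosome 7 from 30552178 to 30555443) and Bag3 (chromosome 7 from 128523616 to 128546981) share a chromosome far apart. Cryab (chromosome 9 from 50751325 to 50756636, plus strand) and Hspb2 (chromosome 9 from 50751078 to 50752354, minus strand) are a head-to-head pair whose gene spans overlap by 1030 bases and whose exons overlap by 252 bases, which is 30.2% of the exon bases of Hspb2 and 17.0% of those of Cryab. The library kit marked the strand, but the strand setting of the counting is not given in the sources used here, so reads of the shared stretch may have been assigned to either gene. Hspb6 shares 122 exon bases with Proser3 and 3 with Lin37 on the other strand, and 77 with the miRNA gene Gm38670 on its own strand.

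Promoter windows of 250 bases before to 50 bases after the transcription start were taken from RefSeq (GRCm38.p6), which matched 7 of the 9 genes with 9 windows. Heat shock factors bind inverted repeats of GAA, so the windows were searched on both strands for GAANNTTC. It was present in 5 of the 7 genes, in 5 of their 9 windows and in 7.86% of all 32851 windows. The sites below are shown because the same 8 letters recur in 4 of these genes, whose levels moved differently in culture. Capitals mark the match, with 11 bases on each side where the window holds them.
Hspb1, chr5:135887791-135887820, plus strand: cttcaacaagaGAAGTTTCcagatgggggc
Hspb1, chr5:135887811-135887840, plus strand: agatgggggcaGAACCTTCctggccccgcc
Hspb6, chr7:30553170-30553199, plus strand: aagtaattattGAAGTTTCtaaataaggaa
Hspb8, chr5:116422844-116422873, minus strand: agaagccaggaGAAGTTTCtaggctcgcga
Bag3, chr7:128523614-128523632, plus strand: ggatgggaccaGAAGTTTC
Hspb3, chr13:113663882-113663911, minus strand: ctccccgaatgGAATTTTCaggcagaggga
Counted from the start as +1, these matches begin at -117 and -97 in Hspb1, at -120 in Hspb6, at 3 in Hspb8, at 43 in Bag3 and at -224 in Hspb3. The reverse arrangement TTCNNGAA was in 0 of the 9 windows and in 8.52% of all windows.

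The E-box CANNTG, the letters that MyoD and myogenin bind, was in 4 of the 7 genes (Hspb1, Hspb3, Hspb7 and Hspb8). That is 4 of their 9 windows, beside 72.3% of all windows. The MEF2 box was in Hspb3 (1 of the 9 windows), where it overlaps the TATAAA of that promoter, and in 0.557% of all windows. TATAAA was in Hspb3 and Hspb6 (2 of the 9 windows) and in 13.6% of all windows. The CArG box of serum response factor (1.63% of all windows) and the full palindromic glucocorticoid response element (0.0487%) were in none of the 9 windows. Such matches describe letters only, and no binding was measured. The 250 bases upstream of Hspb7, the gene with the widest change below, and of Hspb1, the most abundant of the 9 genes per kilobase of exon, are shown in full. Capitals mark the E-box in Hspb7 and both heat shock elements in Hspb1. Hspb1 also holds E-boxes, which are left in lower case.
Hspb7, chr4:141420529-141420778, plus strand: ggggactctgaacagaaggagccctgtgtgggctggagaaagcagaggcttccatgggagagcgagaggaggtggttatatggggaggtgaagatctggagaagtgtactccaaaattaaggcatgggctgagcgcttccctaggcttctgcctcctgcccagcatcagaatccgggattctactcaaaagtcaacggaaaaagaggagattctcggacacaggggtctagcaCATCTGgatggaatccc
Hspb1, chr5:135887669-135887918, plus strand: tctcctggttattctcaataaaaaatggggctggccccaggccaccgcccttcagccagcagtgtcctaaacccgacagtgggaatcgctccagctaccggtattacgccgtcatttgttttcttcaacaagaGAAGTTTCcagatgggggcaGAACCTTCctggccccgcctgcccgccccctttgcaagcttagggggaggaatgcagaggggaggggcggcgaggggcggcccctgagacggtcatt
The short window of Hspb3 with its MEF2 box in capitals is shown because the MEF2 box was the least frequent, over all windows, of the motifs found.
Hspb3, chr13:113663668-113663699, minus strand: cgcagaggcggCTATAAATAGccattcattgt

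Libraries held 21907617 to 29784885 expected counts, in which 17750 to 21111 genes were detected. In 3 groups 1 library had a share of processed pseudogenes lower than its partner by over 1.5 times (day 0 replicate 1, DM1 day 2 replicate 1 and DM3 day 2 replicate 2). DM3 day 2 replicate 2 stood furthest apart, with the fewest genes and a Spearman correlation with its partner of 0.962, against 0.987 to 0.995 within the other groups. In it 4.18% of the genes had an expected count that was not whole, against 9.66 to 10.5% in the other libraries. Muscle markers were found in all groups: the summed level of the 9 of 10 listed that are in the table was 20171 to 21088 CPM in DM3 at day 7 and 1505 to 2977 CPM in the libraries of the other 6 groups. CPM are counts scaled to 1e6 per TMM-scaled library. Markers of fat cells summed to at most 9.22 CPM, reached in DM2 at day 7, and Lep was at 0 in all groups. Sums reached at most 7.30 CPM for endothelial, 7.00 CPM for blood and macrophage, 5.79 CPM for epithelial and 204 CPM for smooth muscle and cardiac markers. In bulk RNA, fewer cells of a type and less RNA per cell cannot be told apart. The part that the higher muscle marker level of DM3 at day 7 plays in the results below was not tested.

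Which members of the family change when myoblasts leave growth medium was asked first. Of the 9 genes 8 had enough counts to be tested; Hspb3 was too low. In DM3 at day 7 against day 0, 7 of 8 were called at an adjusted p under 0.05 (edgeR quasi-likelihood test, Benjamini-Hochberg over 15973 genes), with Hspb7, Hspb2, Flnc, Hspb8 and Cryab higher and Hspb6 and Hspb1 lower, beside 59% of all genes tested (28.9% higher, 30.1% lower). In DM2 at day 7, Hspb7, Flnc and Hspb8 were higher and Hspb1, Hspb6 and Hspb2 lower, beside 55.4% of all genes tested (24.5% higher, 30.9% lower). In DM1 at day 7 the calls were Hspb7, Hspb2 and Bag3, all higher, beside 53.5% of all genes tested (27.7% higher, 25.8% lower). Day 2 gave other sets. In DM3 Hspb7, Hspb2 and Bag3 were higher and Hspb1, Hspb6, Cryab and Hspb8 lower, beside 50.9% of all genes tested (25.5% higher, 25.4% lower). In DM2 Hspb7, Hspb2 and Bag3 were higher and Hspb1, Hspb6 and Hspb8 lower, beside 49.7% of all genes tested (23.5% higher, 26.2% lower). In DM1 Hspb7 and Hspb2 were higher and Cryab and Hspb8 lower, beside 29.7% of all genes tested (15.2% higher, 14.6% lower). The median log2 fold change of the 8 genes was 0.70 in DM3 at day 7, against 0.03 over all genes tested, and between -0.18 and 0.10 in the other 5 groups. In DM1 at day 2, leaving out day 0 replicate 1 left 1 of the 4 calls, and leaving out DM1 day 2 replicate 2 left 2. The 6 comparisons share the day 0 libraries.

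**Figure D1:**
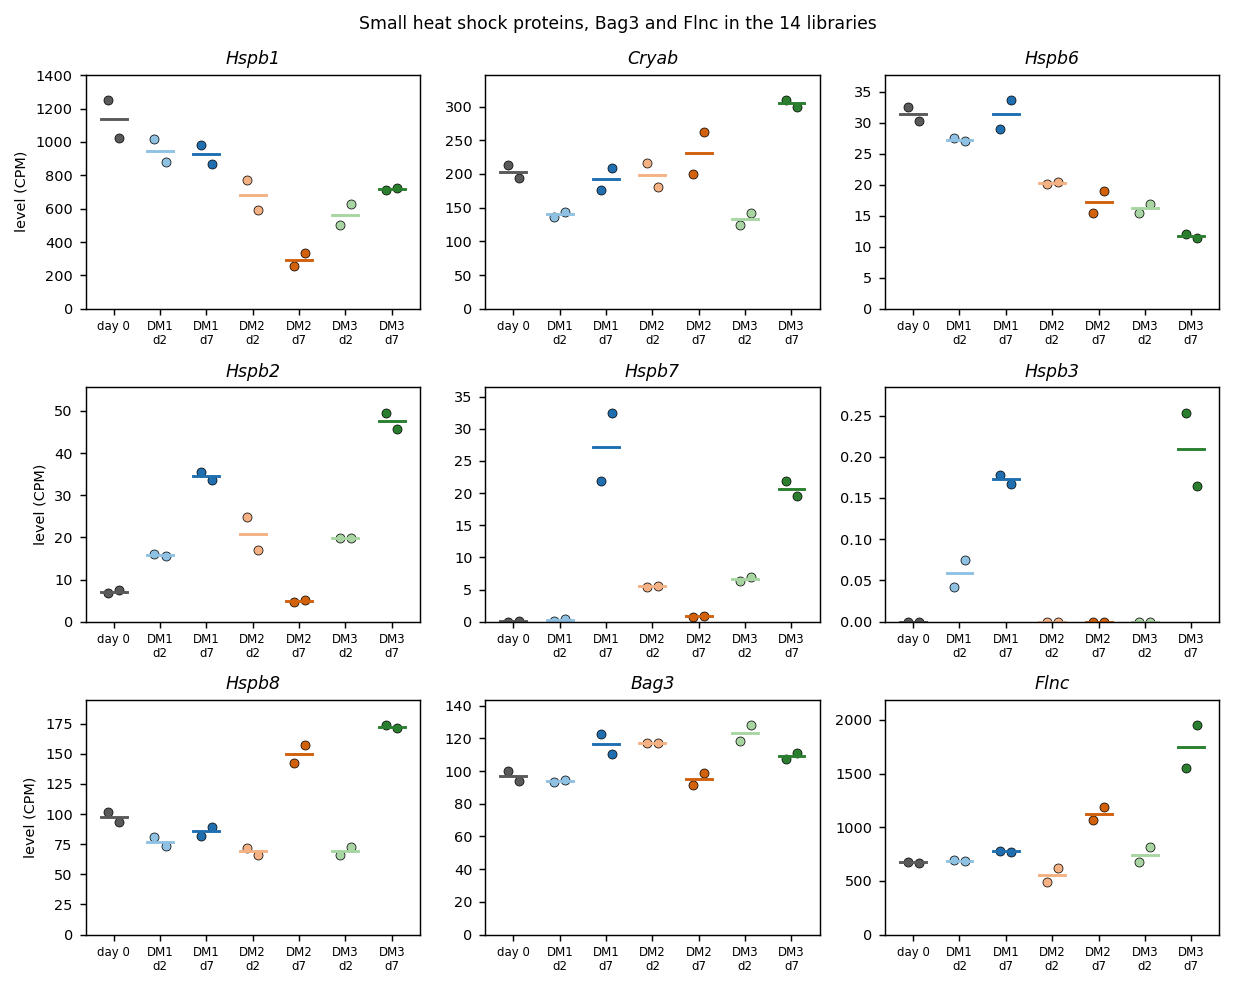
Level of each gene in the 14 libraries, in CPM on linear axes that start at 0, by medium and day (d2, d7); points are libraries and bars the mean of 2. Hspb2 and Hspb7 are high in DM1 and DM3 at day 7 and low in DM2 at day 7, while Hspb8 and Flnc are high at day 7 in DM2 and DM3.

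**Figure D2:**
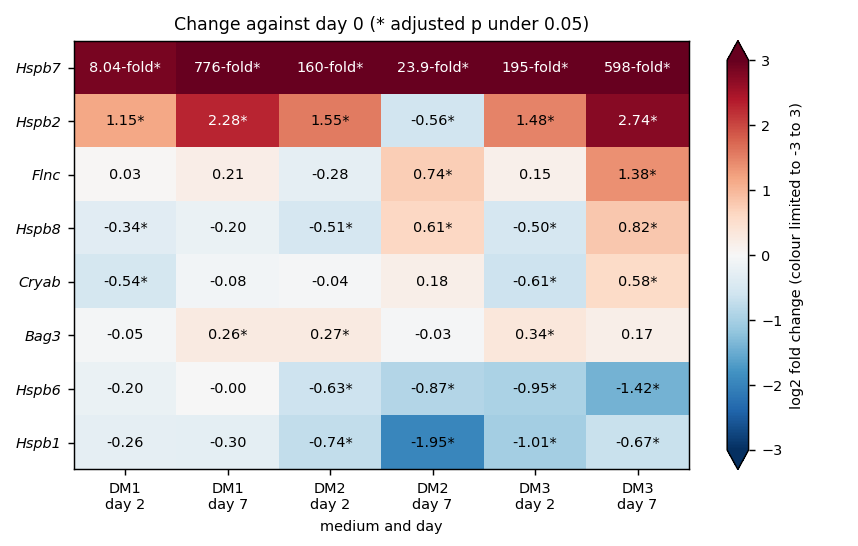
Fitted log2 fold change against day 0 for the 8 genes tested (rows) in each medium and day (columns), with an asterisk where the adjusted p was under 0.05. The row of Hspb7 prints ratios of counts instead, since day 0 held 2 counts of it; in DM3 at day 7 Hspb2 and Hspb7 have the largest rises and Hspb6 and Hspb1 the falls.

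Hspb1 (Hsp25 in mouse), a stress-induced chaperone of actin filaments, was the most abundant of the small heat shock proteins and fell against day 0 in the cocktail media. Its level was 1253 and 1021 CPM in the day 0 libraries. DM1 held 1018 and 877 CPM after 2 days and 983 and 867 CPM after 7 days. In DM2 it was 770.1 and 591 CPM at day 2 and 255 and 334 at day 7, and in DM3 501 and 628 at day 2 and 711 and 722 at day 7. Both DM2 libraries of day 7 lay below all other libraries. Against day 0 the fall was called in DM2 at day 2 (log2 fold change -0.74 ± 0.17, adjusted p = 0.00427) and day 7 (-1.95 ± 0.18, adjusted p = 3.01e-06) and in DM3 at day 2 (-1.01 ± 0.17, adjusted p = 0.000525) and day 7 (-0.67 ± 0.17, adjusted p = 0.00601). The last call was lost without day 0 replicate 1 (-0.51, adjusted p = 0.0573). In DM1 the difference from day 0 was -0.30 at day 7 (95% interval -0.71 to 0.11) and was not called. In a fit of only the groups compared it was called (-0.36, adjusted p = 0.0382). DM3 against DM1 at day 7 did not pass the test for Hspb1 (-0.37 ± 0.17, adjusted p = 0.104). There Hspb1 was called lower in DM3 with library totals (-0.61, adjusted p = 0.00828) and with only the groups compared (-0.38, adjusted p = 0.00942). Between day 7 and day 2, Hspb1 fell in DM2 (log2 fold change -1.21 ± 0.18, adjusted p = 0.000136). Its expected counts were not whole, so part of its reads was shared with other loci.

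Cryab encodes alpha-B-crystallin, the desmin-binding small heat shock protein of lens, heart and muscle. It dipped at day 2 in both HS media. Its level was 213 and 194 CPM in the day 0 libraries. DM1 held 137 and 144 CPM after 2 days and 176 and 208 CPM after 7 days. DM2 held 216 and 181 CPM at day 2 and 200.1 and 262 at day 7, and DM3 125 and 141 at day 2 and 310.3 and 299 at day 7. Cryab was higher in both DM3 libraries of day 7 than in any other library. Against day 0 it rose in DM3 at day 7 (log2 fold change 0.58 ± 0.14, adjusted p = 0.00266) after a fall at day 2 (-0.61 ± 0.14, adjusted p = 0.00242). From day 2 to day 7 in DM3 the rise was 2.29-fold (log2 fold change 1.20 ± 0.14, adjusted p = 2.13e-05). The fall in DM1 at day 2 (log2 fold change -0.54 ± 0.14, adjusted p = 0.0106) was lost without day 0 replicate 1 (-0.47, adjusted p = 0.084) or DM1 day 2 replicate 1 (-0.50, adjusted p = 0.0783). DM2 at day 7 differed from day 0 by 0.18 (95% interval -0.14 to 0.50), which was not called.

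Hspb6 (Hsp20), a partner of Bag3 and of actin-regulating 14-3-3 proteins, moved opposite to Cryab at day 7 in DM3. It was at 32.5 and 30.4 CPM in the day 0 libraries. DM1 held 27.5 and 27.1 CPM after 2 days and 29.0 and 33.8 CPM after 7 days. DM2 held 20.2 and 20.4 CPM at day 2 and 15.4 and 19.0 at day 7. DM3 held 15.5 and 16.9 CPM at day 2 and 12.1 and 11.4 at day 7, the lowest libraries of the study for this gene. All 8 libraries with the cocktail lay below the 6 without it. Against day 0 Hspb6 fell in DM2 at day 2 (log2 fold change -0.63 ± 0.11, adjusted p = 0.000537) and day 7 (-0.87 ± 0.11, adjusted p = 3.24e-05). In DM3 it fell at day 2 (-0.95 ± 0.11, adjusted p = 1.98e-05) and at day 7, when it was 2.67-fold lower (-1.42 ± 0.11, adjusted p = 4.17e-07). DM1 at day 7 differed from day 0 by -0.0028 (95% interval -0.26 to 0.26).

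Hspb2 (MKBP, named for its binding of the myotonic dystrophy protein kinase) and Hspb3 form a complex of their own in muscle, and both had their highest levels in DM3 and DM1 at day 7. Hspb2 was at 6.80 and 7.46 CPM in the day 0 libraries. DM1 held 16.1 and 15.5 CPM after 2 days and 35.5 and 33.6 CPM after 7 days. In DM3 it was at 19.9 and 19.9 CPM at day 2 and 49.6 and 45.7 at day 7. In DM2 it was at 24.8 and 16.9 CPM at day 2 and only 4.59 and 5.06 at day 7, below both day 0 libraries. The rise against day 0 reached 6.68-fold in DM3 (log2 fold change 2.74 ± 0.15, adjusted p = 1.53e-08) and 4.84-fold in DM1 (2.28 ± 0.15, adjusted p = 1.27e-07) at day 7. In DM2 a rise at day 2 (log2 fold change 1.55 ± 0.15, adjusted p = 4.84e-06) was followed by a fall from day 2 to day 7 (-2.11 ± 0.16, adjusted p = 3.64e-07). The level of DM2 at day 7 was below that of day 0 (log2 fold change -0.56 ± 0.16, adjusted p = 0.00843), a call lost without day 0 replicate 2 (-0.50, adjusted p = 0.055) or DM2 day 7 replicate 1 (-0.50, adjusted p = 0.0631). The expected counts of Hspb2 and Cryab were whole in all 14 libraries, unlike those of Hspb1. How reads of the stretch shared with Cryab were assigned was not tested.

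Hspb3 was found with at most 6 counts in a library. It had 6 and 4 counts in DM3 at day 7. After 7 days of DM1 it had 5 and 4 counts, after 2 days of DM1 it had 1 and 2, and it had 0 in all 8 libraries of day 0, DM2 and DM3 at day 2. Against a floor of 3 counts per library, its level was at least 2.01-fold higher in DM3 at day 7 than at day 0 and at least 1.67-fold higher in DM1 at day 7 than at day 0. Floors were between 0.102 and 0.132 CPM per library. Floors and counting intervals cover counting error only, since reads were amplified without molecular identifiers.

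Hspb7 (cvHsp), the cardiovascular small heat shock protein that binds filamin C, changed most. It had 0 and 2 counts in the day 0 libraries, 4 and 10 after 2 days of DM1, and 612 and 779 after 7 days of DM1, which is 21.8 and 32.5 CPM. In DM3 it was at 6.34 and 7.02 CPM at day 2 and 21.8 and 19.5 at day 7. In DM2 it was at 5.41 and 5.61 CPM at day 2 and 0.753 and 0.895 at day 7. Against day 0 the ratio of counts was 776-fold (95% counting interval 214 to 6410.3) in DM1 and 598-fold (95% counting interval 165 to 4946) in DM3 at day 7, with adjusted p = 2.7e-08 and 1.93e-08. In DM2 the ratio was 159.9-fold (95% counting interval 43.9 to 1327) at day 2 and 23.9-fold (95% counting interval 6.22 to 203) at day 7. These sizes rest on the 2 counts of day 0 replicate 2: for DM1 at day 7 the fitted log2 fold change was 9.43, and it was 8.53 without day 0 replicate 1 and 12.44 without replicate 2, and the other day 0 comparisons of this gene shifted alike. Between day 7 and day 2 Hspb7 rose 96.7-fold in DM1 (adjusted p = 2.14e-07) and in DM3 (log2 fold change 1.63 ± 0.27, adjusted p = 0.00046) and fell in DM2 (-2.74 ± 0.32, adjusted p = 2.3e-05). DM1 at day 2 rests on 14 counts, and without its replicate 2 the rise in DM1 was 157-fold. The rise in DM1 at day 2 was 8.04-fold (95% counting interval 1.85 to 72.9). That call (adjusted p = 0.0119) was lost without day 0 replicate 1 (1.94, adjusted p = 0.118) or DM1 day 2 replicate 2 (2.13, adjusted p = 0.177).

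Hspb8 (Hsp22), the partner of Bag3 in selective autophagy, dipped at day 2 and rose at day 7 in the cocktail media. It was at 102 and 93.8 CPM in the day 0 libraries. DM1 held 80.8 and 73.5 CPM after 2 days and 81.8 and 89.2 CPM after 7 days. DM2 held 71.7 and 66.2 CPM at day 2 and 142 and 157 at day 7, and DM3 66.0 and 72.4 at day 2 and 174 and 171 at day 7. The 4 cocktail libraries of day 7 lay above all others. Against day 0 it fell at day 2 in DM2 (log2 fold change -0.51 ± 0.09, adjusted p = 0.000491) and DM3 (-0.50 ± 0.09, adjusted p = 0.000478), and rose at day 7 in DM2 (0.61 ± 0.09, adjusted p = 7.95e-05) and DM3 (0.82 ± 0.09, adjusted p = 5.7e-06). From day 2 to day 7 it rose 2.49-fold in DM3 and 2.17-fold in DM2, with adjusted p = 2.76e-07 and 7.02e-07. The fall in DM1 at day 2 (log2 fold change -0.34 ± 0.09, adjusted p = 0.0114) was lost without day 0 replicate 1 (-0.28, adjusted p = 0.102) or DM1 day 2 replicate 2 (-0.28, adjusted p = 0.113).

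Bag3 had the narrowest range of the 8 genes tested. It was at 100.3 and 94.0 CPM in the day 0 libraries. DM1 held 93.4 and 94.5 CPM after 2 days and 123 and 111 CPM after 7 days. DM2 held 117 and 117 CPM at day 2 and 91.5 and 99.1 at day 7, and DM3 119 and 128 at day 2 and 107 and 111 at day 7. Its highest group mean was 1.31 times its lowest, and only 3.44% of the genes compared for their profile had a smaller range of log2 group means. The differences called against day 0 were small, and each was lost under some alternative. DM3 at day 2 exceeded day 0 (log2 fold change 0.34 ± 0.08, adjusted p = 0.00289), but not without the 3 libraries of low pseudogene share (0.33, adjusted p = 0.0703). DM1 at day 7 exceeded day 0 (0.26 ± 0.08, adjusted p = 0.0133), but not without DM1 day 7 replicate 1 (0.18, adjusted p = 0.136), day 0 replicate 2 (0.21, adjusted p = 0.115) or DM2 day 2 replicate 1 (0.21, adjusted p = 0.0515). DM2 at day 2 exceeded day 0 (0.27 ± 0.08, adjusted p = 0.0126), but not without day 0 replicate 2 (0.22, adjusted p = 0.108) or DM2 day 2 replicate 1 (0.22, adjusted p = 0.112). DM2 at day 7 differed from day 0 by -0.03 (95% interval -0.21 to 0.16) and was not called, while with library totals it was lower (-0.25, adjusted p = 0.00957). In DM1 the higher level at day 7 than at day 2 (0.31 ± 0.08, adjusted p = 0.00888) was lost without any of 3 single libraries, such as DM1 day 7 replicate 1 (0.23, adjusted p = 0.0929). In DM2 the lower level at day 7 than at day 2 (-0.30 ± 0.08, adjusted p = 0.00649) was lost without DM2 day 7 replicate 1 (-0.24, adjusted p = 0.0674).

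Flnc, the filamin of striated muscle, stayed near its day 0 level in DM1 and rose late in the cocktail media. It was at 678 and 667 CPM in the day 0 libraries. DM1 held 691 and 685 CPM after 2 days and 782 and 769 CPM after 7 days. DM2 held 494 and 618 CPM at day 2 and 1064 and 1186 at day 7, and DM3 674 and 817 at day 2 and 1551 and 1949 at day 7. Both DM3 libraries of day 7 lay above both DM2 libraries of day 7, and these above all others. Against day 0 Flnc rose 2.60-fold in DM3 (log2 fold change 1.38 ± 0.13, adjusted p = 2.29e-06) and 1.67-fold in DM2 (0.74 ± 0.13, adjusted p = 0.000467) at day 7. DM1 at day 7 differed from day 0 by 0.21 (95% interval -0.11 to 0.52), which was not called.

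Flna, whose product filamin A crosslinks actin in most cell types, moved the other way in DM3. Per kilobase of exon, Flnc averaged 186 CPM in DM3 at day 7 and 71.5 CPM at day 0. Flna averaged 69.5 ± 10.0 CPM per kilobase in DM3 at day 7 and 343 ± 14.1 at day 0 (SD, n = 2), a log2 fold change of -2.30 ± 0.14 with adjusted p = 2.36e-08. Flna also fell in DM1 at day 7, by 1.23 on the log2 scale (adjusted p = 7.41e-06), where Flnc did not pass the test. The share of Flnc in the summed level of Flnc and Flna per kilobase, which does not depend on the scaling of libraries, was 16.9 and 17.5% in the day 0 libraries. After 2 days of DM1 it was 19.5 and 18.8%, and after 7 days 35.5 and 36.7%. It was 31.9 and 31.7% in DM2 at day 2 and 28.6 and 30.8% in DM2 at day 7. DM3 held 33.9 and 33.9% at day 2 and 72.5 and 73.0% at day 7. Flnc was thus the larger of the pair in both DM3 libraries of day 7, and Flna was the larger in the other 12 libraries. No test was made of this share.

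**Figure D3:**
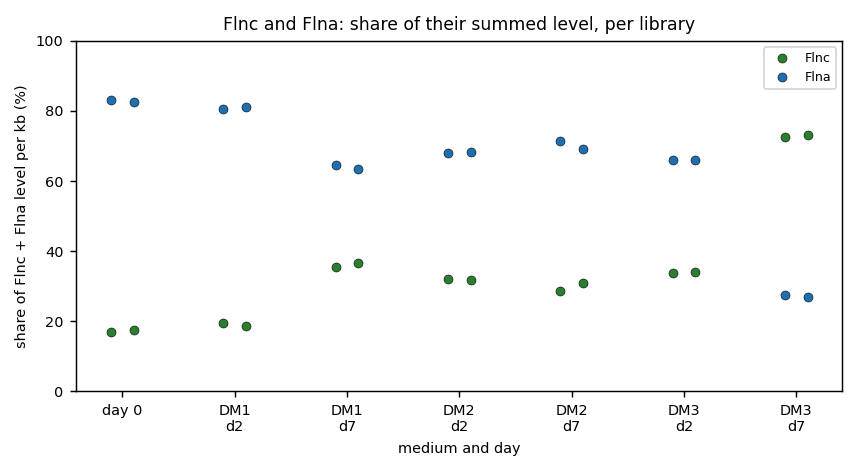
Share of Flnc and of Flna in their summed level per kilobase of exon (%), each point a library, by medium and day. Flnc takes 72.5 and 73.0% in DM3 at day 7 and 16.9 and 17.5% at day 0.

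The effect of adding the cocktail to low HS was read from DM3 against DM1. At day 7, Flnc, Hspb8, Cryab and Hspb2 were higher in DM3 and Hspb6 lower, 5 of 8, beside 47.7% of all genes tested (22.7% higher, 25.1% lower). Flnc was 2.26-fold higher (log2 fold change 1.17 ± 0.13, adjusted p = 1.88e-05) and Hspb8 2.01-fold higher (1.01 ± 0.09, adjusted p = 2.06e-06). Cryab was 1.59-fold higher (0.67 ± 0.14, adjusted p = 0.00153), and Hspb6 was 2.66-fold lower (-1.41 ± 0.11, adjusted p = 1.08e-06). Hspb2 was higher (0.46 ± 0.14, adjusted p = 0.0172), a call lost with library totals (0.23, adjusted p = 0.212), without DM1 day 7 replicate 2 (0.43, adjusted p = 0.0941) and without DM3 day 7 replicate 1 (0.41, adjusted p = 0.103). Hspb7 did not pass the test in DM3 against DM1 at day 7 (-0.40 ± 0.26, adjusted p = 0.239), with an interval of -1.01 to 0.22. At day 2 the picture was different: Hspb7 and Bag3 were higher in DM3 than in DM1 and Hspb1 and Hspb6 lower, beside 37% of all genes tested (17.6% higher, 19.4% lower). Hspb7 had the largest difference (log2 fold change 4.57 ± 0.37, adjusted p = 3.63e-06), which was 5.28, adjusted p = 3.64e-05 without DM1 day 2 replicate 2. Bag3 (0.39 ± 0.08, adjusted p = 0.002) was not called without the libraries of low pseudogene share (0.33, adjusted p = 0.109).

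The effect of serum under the same cocktail was read from DM3 against DM2. At day 7, Hspb7, Hspb2, Hspb1, Flnc and Cryab were higher in DM3 and Hspb6 lower, 6 of 8, beside 52.7% of all genes tested (27.5% higher, 25.2% lower). The summed muscle markers were at 20171 to 21088 CPM in DM3 and 1505 to 1633 CPM in DM2 at day 7, and their part in these differences was not tested. Hspb7 was 24.9-fold higher (log2 fold change 4.64 ± 0.32, adjusted p = 3.44e-07), Hspb2 9.88-fold (3.30 ± 0.16, adjusted p = 7.88e-09) and Hspb1 2.43-fold (1.28 ± 0.18, adjusted p = 8.28e-05). Flnc was 1.56-fold higher (0.64 ± 0.13, adjusted p = 0.00149). Cryab (0.40 ± 0.14, adjusted p = 0.0259) was not called without DM2 day 7 replicate 1 (0.22, adjusted p = 0.249), DM3 day 7 replicate 1 (0.38, adjusted p = 0.105) or DM3 day 7 replicate 2 (0.43, adjusted p = 0.0668). Hspb8 differed by 0.20 (95% interval -0.0042 to 0.41) and did not pass the test. With library totals (0.22, adjusted p = 0.0309) and with only the groups compared (0.21, adjusted p = 0.0455) Hspb8 was called higher in DM3. At day 2 only 2 of 8 were called between these media, beside 16.3% of all genes tested (9.98% higher, 6.31% lower): Cryab was lower in DM3 (-0.58 ± 0.14, adjusted p = 0.0141) and Flnc higher (0.42 ± 0.13, adjusted p = 0.0494). Both calls were lost without some single libraries. Cryab was not called without DM2 day 2 replicate 1 (-0.44, adjusted p = 0.142) or DM3 day 2 replicate 1 (-0.49, adjusted p = 0.0502), and Flnc was lost in 10 of the 14 fits that leave out a library and once the libraries of low pseudogene share were left out (0.28, adjusted p = 0.4).

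Where cocktail and serum both differed, in DM2 against DM1 at day 7, Hspb8 and Flnc were higher in DM2 and Hspb7, Hspb2, Hspb1, Hspb6 and Bag3 lower, beside 57.8% of all genes tested (26.5% higher, 31.4% lower). Hspb2 was 7.16-fold lower in DM2 (log2 fold change -2.84 ± 0.16, adjusted p = 2.99e-08) and Hspb1 3.14-fold lower (-1.65 ± 0.18, adjusted p = 1.16e-05). Hspb7 was 32.8-fold lower (-5.04 ± 0.33, adjusted p = 2.11e-07). The higher Flnc (0.54 ± 0.13, adjusted p = 0.00424) was lost with library totals (0.28, adjusted p = 0.0836). Bag3 (-0.29 ± 0.08, adjusted p = 0.0071) was lost without DM2 day 7 replicate 1 (-0.23, adjusted p = 0.0728) or DM1 day 7 replicate 1 (-0.21, adjusted p = 0.079). In the same pair at day 2, 6 of 8 were called, with Hspb7, Hspb2, Cryab and Bag3 higher in DM2 and Hspb1 and Hspb6 lower, beside 39.4% of all genes tested (17.5% higher, 21.9% lower). The higher Hspb2 (0.40 ± 0.14, adjusted p = 0.0459) was lost in 11 of the 14 fits that leave out a library, and without DM2 day 2 replicate 1 it was 0.07, adjusted p = 0.716. The lower Hspb1 (-0.48 ± 0.17, adjusted p = 0.0477) was lost in 7 of them. Leaving out DM1 day 2 replicate 1 left 1 call, Hspb7 (4.30 ± 0.37, adjusted p = 5.39e-06 with all libraries, which is 19.7-fold, and 31.9-fold without DM1 day 2 replicate 2). Leaving out DM2 day 2 replicate 1 left 3 calls. Between day 7 and day 2, 5 were higher and 1 lower in DM3, beside 47.9% of all genes tested (22.6% higher, 25.3% lower). The Hspb6 call in DM3 was lost without the libraries of low pseudogene share (-0.40, adjusted p = 0.0655). In DM2 2 were higher and 4 lower, beside 54.8% of all genes tested (25.4% higher, 29.4% lower). In DM1 4 were higher and 0 lower, beside 34.3% of all genes tested (16.8% higher, 17.5% lower). Without DM1 day 2 replicate 1, and likewise without replicate 2, 2 of these DM1 calls were left, Hspb7 and Hspb2. The higher Cryab in DM1 (0.45 ± 0.14, adjusted p = 0.0222) was also lost without DM1 day 7 replicate 2 (0.33, adjusted p = 0.18).

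**Figure D4:**
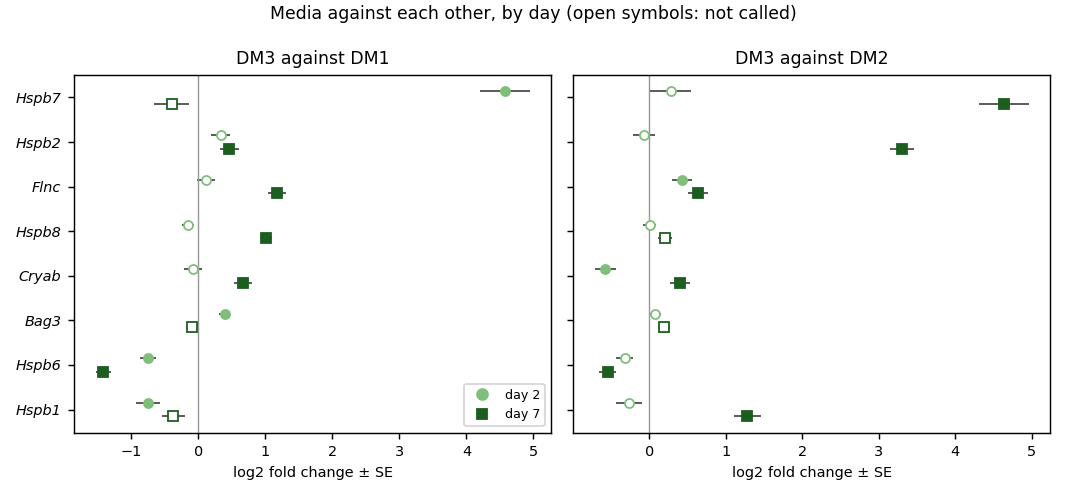
Log2 fold change ± SE of DM3 against DM1 (left) and DM3 against DM2 (right) for the 8 genes tested, at day 2 (circles) and day 7 (squares); filled symbols had an adjusted p under 0.05. Hspb7 departs from DM1 at day 2 and from DM2 at day 7, and Flnc, Hspb8 and Cryab exceed DM1 at day 7.

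Ordered by mean level over the 7 groups, neighbours were often not separable. For Flnc, DM3 and DM2 at day 7 led, in that order, and differed from each other and from DM1 at day 7, while no other neighbours that were compared passed the test. For Hspb2 the order was DM3 at day 7, DM1 at day 7, DM2, DM3 and DM1 at day 2, day 0 and DM2 at day 7, and the day 2 neighbours did not pass the test. For Cryab only the top pair (DM3 and DM2 at day 7) and the pair of DM1 at day 7 and day 2 passed it among the neighbours compared. For Hspb8, DM2 at day 7 passed the test against day 0, its neighbour below, and no other neighbours did. For Hspb6 the neighbours that passed were DM2 and DM1 at day 2, and DM3 at day 7 and day 2. For Hspb7, DM1 and DM3 at day 7 led and overlapped, followed by DM3 and DM2 at day 2, which did not pass the test against each other. For Hspb1 and Bag3 no neighbours that were compared passed it.

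Whether a difference between media itself changed from day 2 to day 7 was tested directly. For DM3 against DM2, 4 of 8 differences were higher at day 7, beside 39.8% of all genes tested (20% higher, 19.8% lower): Hspb7 by 4.36 ± 0.42, adjusted p = 1.22e-05, Hspb2 by 3.37 ± 0.21, adjusted p = 3.61e-07, Hspb1 by 1.55 ± 0.25, adjusted p = 0.000472 and Cryab by 0.98 ± 0.19, adjusted p = 0.00163. For DM3 against DM1, the difference was higher at day 7 for Hspb8 (1.17 ± 0.12, adjusted p = 3.02e-05), Flnc (1.06 ± 0.19, adjusted p = 0.00107) and Cryab (0.74 ± 0.19, adjusted p = 0.0104). It was lower at day 7 for Hspb7 (-4.97 ± 0.45, adjusted p = 1.52e-05, and -5.67, adjusted p = 5.78e-05 without DM1 day 2 replicate 2), Hspb6 (-0.66 ± 0.16, adjusted p = 0.00685) and Bag3 (-0.49 ± 0.11, adjusted p = 0.00514), together 6 of 8, beside 34.9% of all genes tested (16.3% higher, 18.7% lower). Without the libraries of low pseudogene share, those of Hspb6 (-0.60, adjusted p = 0.0639) and Bag3 (-0.41, adjusted p = 0.0854) were not called.

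Set side by side per kilobase of exon, the order of mean levels in all 7 groups began with Hspb1, followed by Cryab and then Flnc. Hspb1 averaged 1103 CPM per kilobase at day 0 and Cryab 138. The lead of Hspb1 was smallest in DM2 at day 7, where Hspb1 averaged 286 CPM per kilobase and Cryab 156. Its share of the summed level per kilobase of the 9 genes was 41.5% in DM2 at day 7, 53.9% in DM3 at day 7, 71.0% in DM1 at day 7 and 77.5% at day 0. Cryab took 22.7% in DM2 at day 7 and 9.68% at day 0. In DM3 at day 7 Cryab and Flnc averaged 206 and 186 CPM per kilobase, a gap that rests on group means and was not tested between genes. Hspb7 was at most 9.81 CPM per kilobase in all groups.

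**Figure D5:**
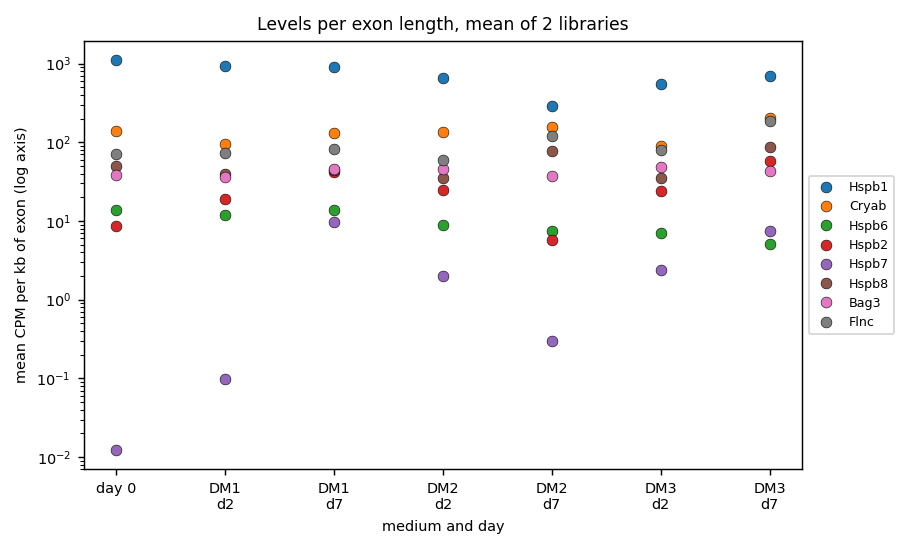
Mean level of 8 of the genes per kilobase of exon, on a log axis, by medium and day (mean of 2 libraries; Hspb3 is left out because it is at 0 in 4 groups). Hspb1 is highest in all groups and Hspb7 spans the widest range.

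Likeness of profile was measured as the root mean square difference of centred log2 group means over the 7 groups, with a pseudocount of 0.5 CPM, among 12796 genes. Bag3 had the nearest neighbours, Zfp809 and Crtc3 (0.0219 and 0.0432), and Hspb7 the most distant, Usp2 and Angptl7 (0.785 and 0.808). The nearest genes to Hspb8 were 9130401M01Rik and Slc15a4 (0.0968 and 0.125) and to Flnc Pisd and Cdc42se2 (0.0952 and 0.128). Cryab was nearest to Mrps34 and 1190007I07Rik (0.112 and 0.116), Hspb6 to Mppe1 and Scfd1 (0.0906 and 0.110), Hspb1 to Arid3b and Dok1 (0.178 and 0.191) and Hspb2 to Pdk2 and Nrep (0.270 and 0.319). Within the set, Hspb8 and Flnc were the closest pair (0.212), followed by Hspb8 and Cryab (0.266). Many genes outside the set lay nearer: Flnc had rank 73 from Hspb8, and Hspb8 rank 29 from Flnc. Cryab had rank 268 from Hspb8, and Hspb8 rank 505 from Cryab. A flat profile such as that of Bag3 has many near neighbours, and these distances carry no test.

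Genes known to work with the family were set beside it. Of the Z-disc partners of filamin C and Flna, in DM3 at day 7 against DM2 at day 7, 9 of 10 tested were higher and 1 lower (median log2 fold change 3.54, against 0.01 over all genes), beside 52.7% of all genes tested (27.5% higher, 25.2% lower). The largest were Actn2, the Z-disc alpha-actinin (21.0 CPM in DM3 and 0.648 CPM in DM2, log2 fold change 5.01 ± 0.78), Nrap (4.61 ± 0.11), the calcineurin-binding calsarcin Myoz2 (4.32 ± 0.14) and the alpha-actinin-binding Ldb3 (3.97 ± 0.10). Flna (-2.02 ± 0.13) was the 1 that was lower. Against day 0, 6 of these 10 were higher and 3 lower in DM3 at day 7 (median log2 fold change 1.99), beside 59% of all genes tested. In DM2 at day 7 against day 0, 2 were higher and 6 lower (median -0.95), beside 55.4% of all genes tested. In DM3 against DM1 at day 7, 6 were higher and 2 lower (median 1.17), beside 47.7% of all genes tested. The kinase gene Dmpk, whose product binds HSPB2, averaged 285 CPM in DM3 and 55.0 CPM in DM2 at day 7 (2.37 ± 0.10, adjusted p = 2.97e-09), the same direction as Hspb2. Desmin (Des), bound by alpha-B-crystallin, averaged 2047 CPM in DM3 and 469 CPM in DM2 (2.13 ± 0.12, adjusted p = 3.46e-08). Against day 0, Dmpk and Des rose in DM3 at day 7 (1.08 ± 0.10 and 1.25 ± 0.12) and fell in DM2 at day 7 (-1.30 ± 0.10 and -0.88 ± 0.12). Vimentin (Vim), the filament of undifferentiated cells, fell in DM3 at day 7 (-1.81 ± 0.10). Of the 6 named partners and intermediate filament genes, in DM3 at day 7 against day 0, 2 were higher and 3 lower, beside 59% of all genes tested (28.9% higher, 30.1% lower).

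Among the other Bag genes, Bag1 encodes the exchange factor that links Hsp70 to the proteasome. It averaged 467 CPM in DM3 at day 7 and 149.6 CPM at day 0 (log2 fold change 1.64 ± 0.13, adjusted p = 3.26e-07), and was the only one of 5 other Bag genes called in this comparison, beside 59% of all genes tested (28.9% higher, 30.1% lower). In DM3 at day 2 against day 0, 4 of the 5 were lower, beside 50.9% of all genes tested. With library totals 3 of the 5 were called in DM3 at day 7 against day 0, 1 higher and 2 lower. Bag1 also rose in DM2 at day 7 (0.95 ± 0.13), while in DM1 at day 7 it differed from day 0 by 0.07 ± 0.13 and was not called. Per kilobase Bag1 averaged 346 ± 22.3 CPM in DM3 at day 7 and 111 ± 7.15 at day 0 (SD, n = 2). Bag3 averaged 42.6 CPM per kilobase in DM3 at day 7 and 37.9 at day 0. Among 13 autophagy partners of Bag3, in DM3 at day 7 against day 0, 7 of 13 tested were higher and 3 lower (median log2 fold change 0.32, against 0.03 over all genes), beside 59% of all genes tested (28.9% higher, 30.1% lower). The LC3 genes Map1lc3a (4.67 ± 0.14) and Map1lc3b (1.19 ± 0.10), which coat autophagosomes, and the CASA adaptor Synpo2 (1.70 ± 0.10) rose, and Hspa8 fell (-1.39 ± 0.49, adjusted p = 0.0418). The Hspa8 call was lost in 12 of the 22 alternatives, and without day 0 replicate 1 its log2 fold change was -0.68. In DM2 at day 7 the autophagy receptor Sqstm1 averaged 1857 CPM, against 490.3 CPM at day 0 (1.92 ± 0.11, adjusted p = 3.92e-08).

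Other chaperones were lower more often than higher late in DM3. Of 20 other heat shock chaperones, a list that also holds the mitochondrial pair Hspd1 and Hspe1, in DM3 at day 7 against day 0, 2 of 20 tested were higher and 13 lower (median log2 fold change -0.59, against 0.03 over all genes), beside 59% of all genes tested (28.9% higher, 30.1% lower). Hsp90aa1 (-1.33 ± 0.10) and Hspd1 (-1.25 ± 0.09) fell most after Hspa8, followed by Hspa1b (-1.22 ± 0.25), whose reads can be confused with those of its near-identical copy Hspa1a. In DM1 at day 7 against day 0, 2 were higher and 13 lower, beside 53.5% of all genes tested (27.7% higher, 25.8% lower). In DM2 at day 7 against day 0 the counts were 4 higher and 9 lower, beside 55.4% of all genes tested (24.5% higher, 30.9% lower). Without day 0 replicate 1 they were 4 and 3, and without DM2 day 7 replicate 2 they were 3 and 4. In DM2 against DM1 at day 7, 14 of 20 tested were higher and 6 lower (median log2 fold change 0.65, against -0.01 over all genes), beside 57.8% of all genes tested (26.5% higher, 31.4% lower), with Hsph1 (2.02 ± 0.09), Hspe1 (1.66 ± 0.11) and Hspd1 (1.48 ± 0.09) higher. Hspa1l had 1 count in DM2 and 81 in DM1 at day 7, a ratio of 0.0123 (95% counting interval 0.000307 to 0.0704). In the same comparison, of the small heat shock protein genes tested, Hspb1, Hspb2, Hspb6 and Hspb7 were lower and Hspb8 was higher (0.81 ± 0.09, adjusted p = 8.46e-06). Cryab was not called there (0.27 ± 0.14, adjusted p = 0.113). It was called higher with DESeq2 (0.32, adjusted p = 0.0431) and with no low-count filter (0.33, adjusted p = 0.0412). Without DM2 day 7 replicate 1 the log2 fold change of Cryab was 0.45. Hsf1, the main heat shock factor, averaged 69.2 CPM in DM3 at day 7 and 80.1 CPM at day 0 (-0.21 ± 0.08, adjusted p = 0.0395), a call lost in 11 of the 22 alternatives. The heat shock factor binding protein gene Hsbp1 rose there (0.67 ± 0.09, adjusted p = 4.56e-05). Of the 4 other small heat shock protein genes only Hspb11, a subunit of ciliary transport, could be tested, and it rose in DM3 at day 7 (0.67 ± 0.13, adjusted p = 0.000614).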

How the data were processed

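The authors deposited RSEM expected counts, that is, estimated numbers of reads per gene, some fractional since RSEM spreads ambiguous reads over loci, with no normalization. Per the series' design text and the submitters' processing notes, strand-specific poly(A) libraries made with 11 PCR cycles were sequenced single-end, aligned with STAR 2.5.1b to GRCm38.p5 with Gencode vM12 and counted with RSEM 1.2.31. The table held 49671 genes in 14 libraries.

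Expected counts were rounded. The test was that of edgeR 4.0.16, in R 4.3.3 with limma 3.58.1. After filterByExpr by group 15973 genes were left. Libraries were scaled by TMM and fitted in 1 model of the 7 groups without a replicate block, with 7 residual degrees of freedom, and 15 comparisons and 2 tests of day dependence were made with the robust quasi-likelihood F test. Genes were called at a Benjamini-Hochberg adjusted p under 0.05 over all genes tested. SE is the absolute log2 fold change over the square root of F, and 95% intervals use a t distribution with the 7 residual degrees of freedom. The test itself has more, since it shares the spread across genes, so the intervals are wider than its p-values imply. The steps were tested on simulated data. DESeq2 1.42.0 was an alternative, beside other scalings, no filter, no robust option, the compared groups alone, a replicate block, and leaving out libraries.

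The members were described in full; from other lists the called genes with the largest changes were named, at most 4 a list and comparison, and for each member its 2 nearest profiles. One gene of the lists is not reported here. The members and lists were chosen with earlier results of these data known. Levels are CPM on TMM-scaled libraries. Exon lengths are the union of exons in Gencode vM21.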

Additional observations from a re-analysis of the deposited data

Results flagged for a closer look

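These results were set apart because the difference between 2 media at day 7 differed, by its own test in the same model, from that at day 2. For DM3 against DM2 the change of the log2 difference was 4.36 for Hspb7, 3.37 for Hspb2, 1.55 for Hspb1 and 0.98 for Cryab. For DM3 against DM1 it was 1.17 for Hspb8, 1.06 for Flnc and 0.74 for Cryab. On the same comparison it was -4.97 for Hspb7, -0.66 for Hspb6 and -0.49 for Bag3. All 10 used all 14 libraries, and standard errors and adjusted p-values are given above. Cryab was the only one of the 8 called higher at day 7 in both tests. Groups of 2 libraries could not be searched for outlying samples.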

How the results depend on the processing

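Of 2991 values over 136 results of the members and 22 alternatives, 2867 kept their side of the threshold, 96 lost the call, 28 gained one and 0 changed sign with a call. Some values without a call, such as those near 0, did change sign. Of the 22 alternatives, 14 left out 1 library each. A library outside a comparison enters it only through the filter, the scaling and the shared spread. Many of the kept values are therefore weak checks. The number of members called was within 1.5 times of that reported in 13 of the 17 comparisons under all 22 alternatives. The exceptions were day 2 comparisons and DM1 over time. In DM1 at day 2 against day 0 there were 4 calls, falling to 1 without the libraries low in pseudogenes; leaving out 1 library gave 1 to 4. In DM1 at day 7 against day 2 there were 4 and 2 without those libraries; leaving out 1 gave 2 to 4. In DM2 against DM1 at day 2 there were 6 and 2 without those libraries; leaving out 1 gave 1 to 6. In DM3 against DM2 at day 2 there were 2; 1 with RLE size factors, 1 without the robust option, 0 with only the groups compared and 1 without those libraries; leaving out 1 gave 0 to 2. With only the groups compared, edgeR's 0 calls stood beside 3 members at an unadjusted p under 0.05. DESeq2, which was fitted to all 14 libraries and not to the compared groups alone, called 2. The cause of the 0 calls was not tested. The percent of all genes called moved by over 1.5 times with no low-count filter in all 17 comparisons. That fit also tested the genes that the filter removes, so its percent is taken over more genes. Over the alternatives the percent was 13.0 to 38.6% in DM1 at day 2 against day 0 and 3.45 to 24.7% in DM3 against DM2 at day 2. With library totals the median log2 change of all genes against day 0 was -0.26 in DM2 and -0.18 in DM3 at day 7. The labels do not say what the replicate numbers stand for. Over 21 pairs of groups the correlation of the deviations of same-numbered replicates was between -0.629 and 0.518. With the replicate block, DM2 against DM1 at day 2 lost Hspb1 (-0.48, adjusted p = 0.0627) and Hspb2 (0.39, adjusted p = 0.0514) and gained Flnc (-0.32, adjusted p = 0.0431); no other member call changed. Hspa8 in DM2 at day 7 against day 0 (-0.01, not called) was 0.70 (adjusted p = 0.00127) without the libraries of low pseudogene share. With 2 libraries a group, small changes such as those of Bag3 were lost on leaving out single libraries, and at 1 to 3 counts (Hspb3, Hspb7 at day 0) sizes are bounded by counting alone.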
